A study of Zea mays with 4 samples.

Results

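Chromosome 5 of maize held 147 peaks of ZmbZIP22 in each of 2 replicate peak lists that had a counterpart in the other list. A peak counts as partnered when a summit of the other replicate's list lies within 500 bp on the same chromosome. The chromosome had 193 peaks in replicate 1 and 175 in replicate 2, and the whole lists held 1961 and 1791, of which 1550 were partnered in each. The members were thus chosen from measured values, and their number, position and partnership are given as a description without a test. Positions beyond 200 Mb, at the high-coordinate end of the chromosome, are called the distal end and the remainder the rest.

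The material was endosperm from wild-type kernels at 15 days after pollination, and all 4 libraries share that tissue, genotype and stage. Chromatin immunoprecipitation followed by sequencing (ChIP-seq) used an anti-ZmbZIP22 antibody made by the submitters, with purified IgG as antibody control, in 2 replicates each. Nothing in the labels tells whether separate plants gave the replicates, and the antibody's specificity was not examined here. Depth is unknown, since the lists give no read totals, and no IgG values were analysed here.

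ZmbZIP22 belongs to the basic leucine zipper (bZIP) transcription factors. Such proteins bind DNA as dimers, with the zipper holding both subunits together and the basic region contacting the DNA, often at sites with an ACGT core. In the maize endosperm, bZIP proteins act on genes for zeins, which store protein in the kernel, and ZmbZIP22 is known for its action on a gamma-zein gene. Maize chromosomes are gene-rich towards both ends and rich in repeats around the centromere. No sequence or gene annotation of the build of these lists was used, so peaks are named by position and their nearest genes are not given.

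Partnered peaks were crowded at the distal end. Of the 147, 90 started beyond 200 Mb and 57 before it, with the same counts in both lists, or 61.2% distal (exact 95% interval 52.8% to 69.1%). The partner rule all but fixed these equal counts, so they are not separate evidence from each replicate. The distal end, measured to the last peak end of the chromosome at 216751106, made up 7.73% of the span. This gave 5.37 partnered peaks per Mb in the distal end and 0.285 per Mb in the rest, a ratio of 18.9. The intervals treat peaks as independent draws and cover counting error only, and neighbouring peaks may not be independent.

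The increase towards the end began before 200 Mb. The first 10 Mb of the chromosome held 7 partnered peaks and the second 10 Mb held 5. Between 20 and 170 Mb, no window of 10 Mb held more than 3, and 5 such windows held none. Windows from 170 and from 180 Mb held 5 each, the window from 190 Mb held 19, the window from 200 Mb held 48 and the last, incomplete window held 42. Among the 209 windows of 10 Mb over all 10 chromosomes, the median was 3 and the highest count was 60, and the 48 and 42 of the distal end ranked 3 and 5. The crowding was on 1 side: the first 16.8 Mb of the chromosome, as long as the distal end, held 9 partnered peaks (6.12%).

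**Figure D1:**
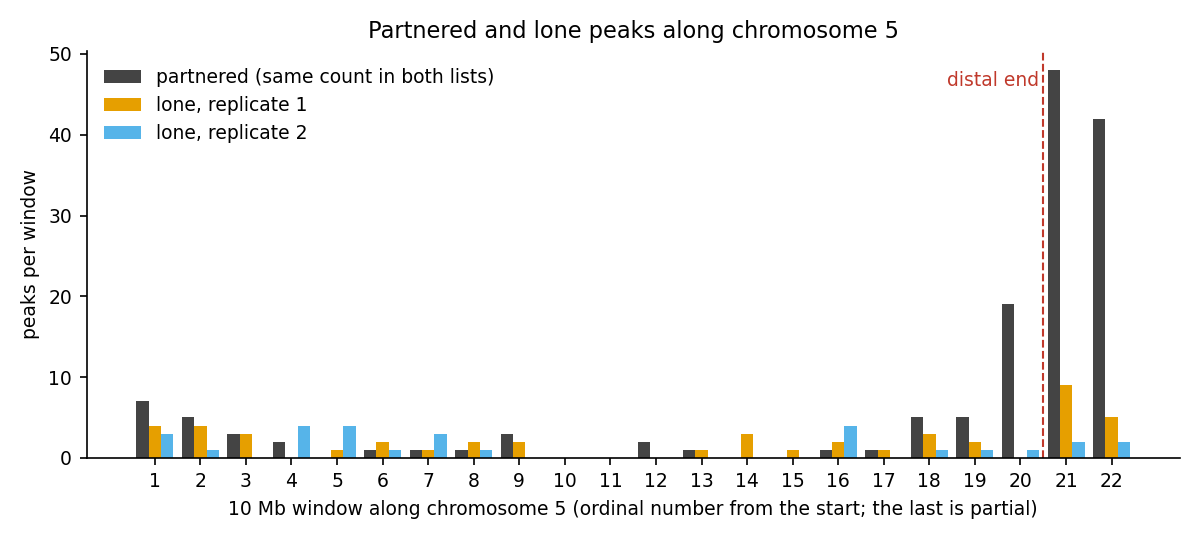
Peaks per 10 Mb window along chromosome 5, in order from the start of the chromosome, with partnered peaks as dark bars and the lone peaks of each list as coloured bars; the dashed line marks the start of the distal end. Windows 21 and 22 hold 48 and 42 partnered peaks, and no earlier window holds more than 19.

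A smaller share of the peaks without a partner was distal. Of the 46 lone peaks of replicate 1, 14 were distal, or 30.4% (exact 95% interval 17.7% to 45.8%). Of the 28 lone peaks of replicate 2, 4 were distal, or 14.3% (4.03% to 32.7%). Counted once per interval, 13 of 42 lone intervals of replicate 1 were distal. Both intervals lie below that of the partnered peaks, and the difference was not tested. The lone peaks were also unlike the partnered ones in fold enrichment, a ratio to the local background. Their lowest values were 25.7 and 25.8 in replicates 1 and 2, where the partnered medians were 4.40 and 7.78. The contrast is thus not one of otherwise similar peaks. In replicate 1 the pileups of lone and partnered peaks also differed in step, as given below.

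The same length was laid off at the end of every other chromosome. The last 16.8 Mb held between 0.903% and 39.6% of the partnered peaks of the other 9 chromosomes, with a median of 7.50%. The highest of these was chromosome 9, with 19 of 48 partnered peaks (39.6%, exact 95% interval 25.8% to 54.7%). Next was chromosome 10, with 12 of 65 (18.5%, 9.92% to 30.03%). Chromosome 1, which held 554 partnered peaks, had 5 of them in its last stretch. The share on chromosome 5 was the highest of the 10 in these lists, and its interval overlapped that of chromosome 9.

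**Figure D2:**
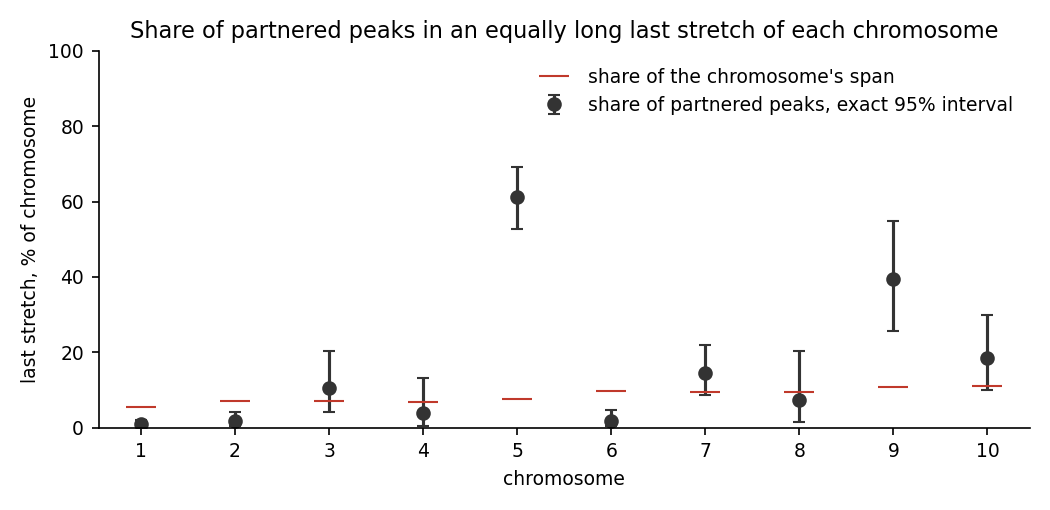
Share of each chromosome's partnered peaks (points, replicate 1 list, exact 95% interval as bars) that start in the last 16.8 Mb before its last peak end, with the share of the span as a dash. Chromosome 5 stands at 61.2% and chromosome 9 at 39.6%, while chromosomes 1, 2 and 6 lie under 2%.

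Neighbouring members lay much closer together in the distal end. The median distance between consecutive summits there was 94.9 kb in replicate 1 (quartiles 20.42 and 262 kb) and 94.5 kb in replicate 2 (20.6 and 262 kb). In the rest it was 1238 kb in both lists, with quartiles of 338 and 4250.4 kb in replicate 1. Of the 89 distal gaps, 45 were under 100 kb and 2 exceeded 1 Mb, and of the 56 gaps in the rest, 10 were under 100 kb and 30 exceeded 1 Mb. The longest stretch without a member ran 29.1 Mb, from the summit at 126319560 to that at 155443443. Further empty stretches of 27.7 Mb and 20.2 Mb followed the summits at 83498354 and 38089248. The 2 lists cannot differ much in this measure, because each member of one list lies within 500 bp of a member of the other.

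Some members formed tight groups. When summits less than 5 kb apart were joined, 16 of the 90 distal members fell into 5 groups and 8 of the 57 others fell into 2 groups, in either list. These were 17.8% and 14.04% of the members of each section, so tight groups took similar shares of both. The 5 kb limit was chosen after the positions had been seen. The share of all partnered peaks that fell into such groups is not given here, so the comparison holds between the sections only.

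The densest 1 Mb of the distal end, from 208 to 209 Mb, held 14 members, and it contained a group of 5 summits within 8.51 kb. In replicate 1 this group started at 208684838 and ended at 208693347, with fold enrichment between 4.45 and 5.56 and pileup between 13.1 and 32.4. The fold enrichment is the authors' ratio of the pileup, the stack of fragments at the summit, to the local background. In replicate 2 the same group had fold enrichment between 7.43 and 35.4 and pileup between 18 and 173. The replicate 2 peak at 208688074 to 208688690 carried those maxima, and its counterpart, 272 bp away by summit, had a pileup of 16.6 and 5.56-fold enrichment. The strongest position of the group in replicate 2 was thus not the tallest in replicate 1. The tallest summit there, with a pileup of 32.4, lay in the same replicate 1 interval as that counterpart, 208687604 to 208688230. Its fold enrichment was 5.04, below the 5.56 of the counterpart, so pileup and fold enrichment ordered these summits differently.

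The densest 1 Mb of the rest, from 197 to 198 Mb, held 10 members, 5 of them within 3.81 kb. These ran from 197496654 to 197500461 in replicate 1, with pileups between 15.8 and 17.5 and fold enrichment between 3.13 and 5.07. The replicate 2 pileups were 22 to 112 and the fold enrichments 6.90 to 16.4. Another group, of 4 summits, marked the first members beyond 200 Mb, at 200120965 to 200122860 in replicate 1. Its members were enriched 2.40-fold to 3.32-fold in replicate 1 and 3.62-fold to 17.02-fold in replicate 2. The last member before the boundary, at 199761423 to 199761740, had 6.39-fold and 7.73-fold enrichment.

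A group near the start of the chromosome held 3 summits between 9002960 and 9004879, with fold enrichment of 3.18 to 6.52 in replicate 1 and 3.81 to 9.04 in replicate 2. Among the partnered members of replicate 1, 4 intervals carried several summits each, at most 3, and among those of replicate 2 none did.

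With the boundary at 200 Mb, the median length of distal members was slightly above that of the rest in both lists. The median length was 318.5 bp against 303 bp in replicate 1 and 407 bp against 352 bp in replicate 2. The quartiles were 283 and 397 bp against 271 and 347 bp in replicate 1, and 311 and 465 bp against 311 and 447 bp in replicate 2, so the sections overlapped over most of their range. The differences were 15.5 bp and 55 bp, and with the distal end begun at 210 Mb that of replicate 1 turned to −6.50 bp. Each interval counted once, the partnered peaks of the distal end covered 30.5 kb in replicate 1 and 36.5 kb in replicate 2, and those of the rest covered 18.2 kb and 21.6 kb.

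Heights at the summit differed little between the sections. In replicate 1 the median pileup was 21.02 in both, with quartiles of 14.9 and 40.3 in the distal end and 15.8 and 32.4 in the rest. In replicate 2 it was 33 in the distal end (quartiles 21.5 and 65.5) and 29 in the rest (21 and 43). Replicate 1 pileups of all 147 members were multiples of 0.876 within 0.01, from 11 to 326 such steps, with a median of 24 steps in each section. Replicate 2 pileups were whole numbers. The lists were scaled separately, so their levels are set side by side and not compared.

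The highest replicate 1 pileup was 285 in the distal end, at a peak of 2.73-fold enrichment, and 74.4 in the rest. In replicate 2 the highest values were 173 and 165.

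Fold enrichment was a little higher in the distal end in both lists. In replicate 1 the median was 4.49 (quartiles 3.68 and 5.95) against 4.11 (3.35 and 5.01), a difference of 0.381. In replicate 2 it was 8.21 (quartiles 5.84 and 15.1) against 6.96 (5.08 and 11.2), a difference of 1.25. Both differences are small beside the quartile ranges. They were not tested, because the members come from lists made on these same values and 1 list exists for each replicate. Over all partnered peaks of the other 9 chromosomes the medians were 4.17 and 7.58, between those of the distal end and the rest in either list.

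**Figure D3:**
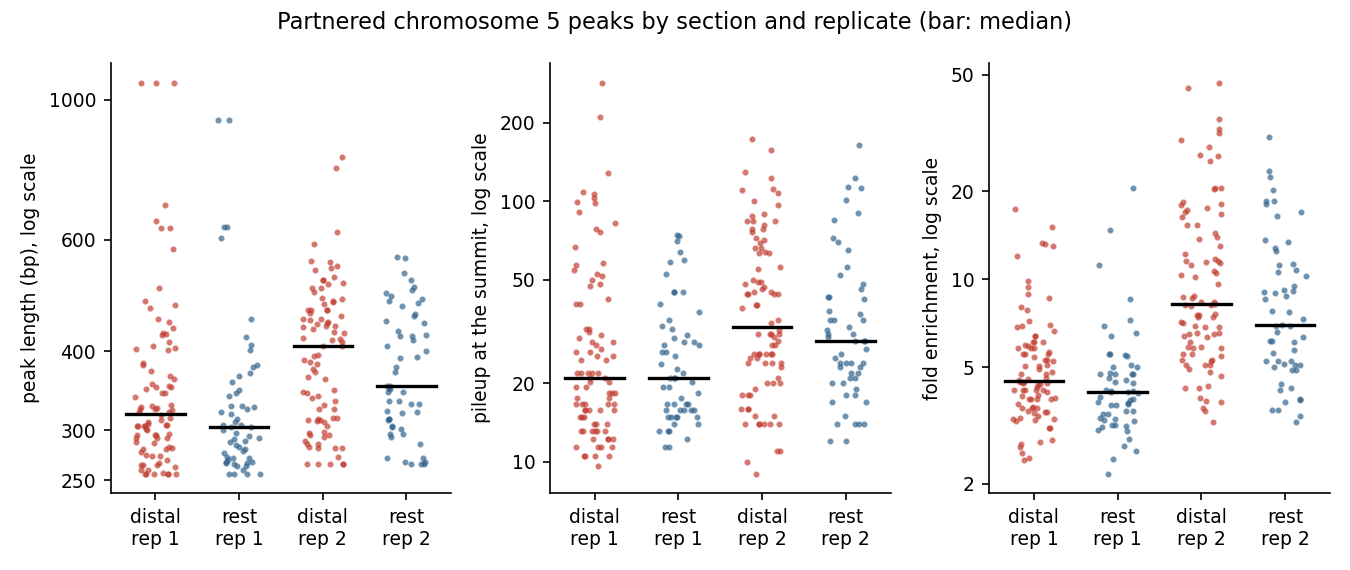
Length (bp), pileup and fold enrichment of each partnered peak of chromosome 5 on log scales, by section (90 distal, 57 rest) and replicate; each point is a peak and each bar the median. The sections overlap in every panel, and the replicate 2 medians of fold enrichment, 8.21 and 6.96, lie above those of replicate 1, 4.49 and 4.11.

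Strong members were counted as those with at least 10-fold enrichment. In replicate 1 these were 6 of 90 distal members, or 6.67% (exact 95% interval 2.49% to 13.9%). Of the 57 others they were 3, or 5.26% (1.10% to 14.6%), where 3.42% of all partnered peaks of that list reached 10. In replicate 2 they were 38 of 90 and 18 of 57, or 42.2% (exact 95% interval 31.9% to 53.1%) and 31.6% (19.9% to 45.2%), where 36.5% of all partnered peaks did. In both replicates the share over all partnered peaks lay within the intervals of both sections. A value of 10 in both replicates was reached by 3 pairs of the chromosome, 2.04% of its 147, where 1.55% of all pairs reached it.

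Those 3 pairs lead the chromosome by the lower of the replicates' fold enrichments. In the first, the replicate 1 peak at 204689095 to 204689502 had a pileup of 40.3 and 13.01-fold enrichment. Its partner at 204688658 to 204689168 had a pileup of 81 and 25.4-fold enrichment, with its summit 361 bp upstream. The second pair, at 210459277 to 210459703 in replicate 1, had pileups of 107 and 108 and fold enrichments of 11.98 and 26.5, with summits 387 bp apart. The remaining pair lay in the rest, at 177873884 to 177874260, with pileups of 52.5 and 43, fold enrichments of 14.7 and 11.2, and summits 44 bp apart. Both distal pairs were thus wide and the pair outside was close.

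The next 5 by this rank had a lower value between 7.26 and 8.91. They started in replicate 1 at 206510843, 207875015 and 207177648 in the distal end and at 197632619 and 179052621 in the rest. Of these, the peak at 207875015 to 207875488 was enriched 17.4-fold in replicate 1 and its partner 8.70-fold. The pair at 206510843 to 206511190 had the reverse order, with 8.91-fold and 14.4-fold.

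None of the 3 most enriched members of one list had a partner among the 3 most enriched of the other. The highest fold enrichment of replicate 1 was 20.46, at 196154205 to 196154654 in the rest, and its partner had 6.61. Next came the distal peaks at 207875015 (17.4) and 207189921 (15.1), with 8.70 and 6.49 in replicate 2. The highest of replicate 2 was 47.02, at 213766621 to 213767174, with a pileup of 157. Its replicate 1 partner had the highest pileup of that list on the chromosome, 285, but 2.73-fold enrichment. The other leading members of replicate 2, at 203205814 to 203206359 (45.2-fold) and 208688074 to 208688690 (35.4-fold), both had 5.56-fold enrichment and a pileup of 16.6 in replicate 1.

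High pileup with low fold enrichment recurred in replicate 1. The next tallest members of that list, at 214328350 to 214328640 and 213596689 to 213596950, had pileups of 210.2 and 129 and fold enrichments of 2.67 and 3.09. Their partners had pileups of 35 and 40 and fold enrichments of 8.24 and 8.34. A local background was computed as the pileup plus 1 divided by the fold enrichment. It reached at least 10 in 18 of 90 distal members and 11 of 57 others in replicate 1, or 20% and 19.3%, where 20.6% of all partnered peaks of the list did. In replicate 2 it did so in 1 member of each section, where 1.42% of all partnered peaks did. The highest background of the chromosome was 105 in replicate 1, at the peak from 213766774, and 13.7 in replicate 2.

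At the low end, many replicate 1 members shared a single background value. A background within 0.02 of 3.17 was the most frequent in that list. It was carried by 35 of 90 distal members, or 38.9% (exact 95% interval 28.8% to 49.7%), and by 10 of 57 others, or 17.5% (8.75% to 29.9%), where 29.7% of all partnered peaks carried it. Among such members the fold enrichment follows from the pileup alone, and each with a pileup of 16.6 had 5.56-fold enrichment. The median background of replicate 1 was lower in the distal end (3.9997) than in the rest (5.0002), and that of replicate 2 was 3.94 in both sections.

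No rank relation of fold enrichment between partners was seen, here or in the lists as a whole. Over the 147 pairs, matched in order of position, Spearman's rho was 0.053 and Pearson's r was 0.00222, and over the 1403 pairs of the other 9 chromosomes rho was 0.0163. Within the sections rho was 0.0836 over 90 distal pairs and −0.0935 over 57 others. The pileups gave 0.18 in the rest and −0.0658 in the distal end, and the backgrounds gave 0.0319 over the 147 pairs. These are descriptions across pairs from the same pair of libraries. The replicate 2 value was the higher in 124 of the 147 pairs, or 84.4%, where 84.3% of all pairs showed the same. The median ratio was 1.66 on chromosome 5, with a range from 0.323 to 17.2, and 1.84 over all pairs.

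**Figure D4:**
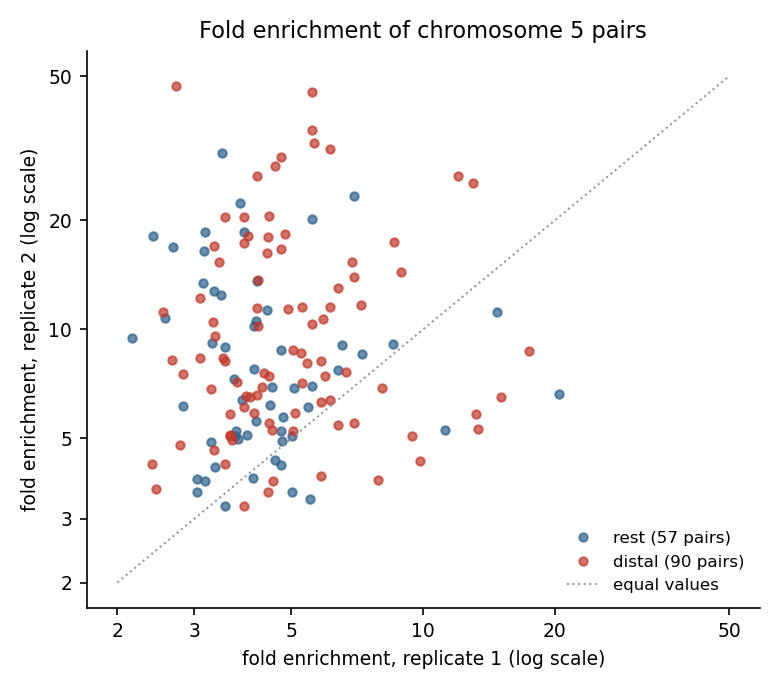
Fold enrichment of each chromosome 5 pair in replicate 1 (horizontal) and replicate 2 (vertical) on log scales, with distal pairs in red, other pairs in blue and equal values dotted. The cloud has no visible slope (rho 0.053 over 147 pairs), and 124 pairs lie above the dotted line.

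Partner summits lay farther apart on chromosome 5 than on the other chromosomes of these lists. The median distance was 184 bp over the 147 pairs (quartiles 95 and 273 bp), against 146 bp over the 1403 pairs of the other chromosomes (quartiles 70 and 226.5 bp). Taken singly, the other chromosomes had medians from 127 bp (chromosome 4) to 170 bp (chromosome 6). The widest pair of all, at 497 bp, lay on chromosome 1. Summits over 300 bp apart occurred in 27 of the 147 pairs, or 18.4% (exact 95% interval 12.5% to 25.6%), where 3.55% of all pairs had them. The other 9 chromosomes had 28 such pairs among 1403, or 1.996% (1.33% to 2.87%). Chromosome 5 thus held 49.1% of the 55 wide pairs and 9.48% of all pairs. The remaining wide pairs lay on chromosomes 1 (16), 2 (10) and 3 (2), and the other 6 chromosomes had none. On those 6 the widest pair was between 285 bp (chromosome 4) and 298 bp (chromosome 6), just under the limit. On chromosome 5 it was 394 bp. Why the distances of those 6 chromosomes end there was not tested. With the nearest summit of the other list in place of the match in order, 26 members of each list were over 300 bp from it. The limit of 300 bp was chosen with the values known, and the difference was not tested.

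By position, 1 of the 38 pairs before 190 Mb was wide, the pair at 182924078 to 182924383 in replicate 1, with summits 374 bp apart. From 190 to 200 Mb, 8 of 19 pairs were wide, none was within 50 bp, and the replicate 2 summit lay downstream in 14. From 200 to 210 Mb, 11 of 48 were wide, and beyond 210 Mb 7 of 42. The median distance in these stretches was 153.5, 269, 219 and 156 bp. Wide pairs made up 20% of the distal end and 15.8% of the rest. The summit distance is the measure the partner rule used, so these counts are a description.

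**Figure D5:**
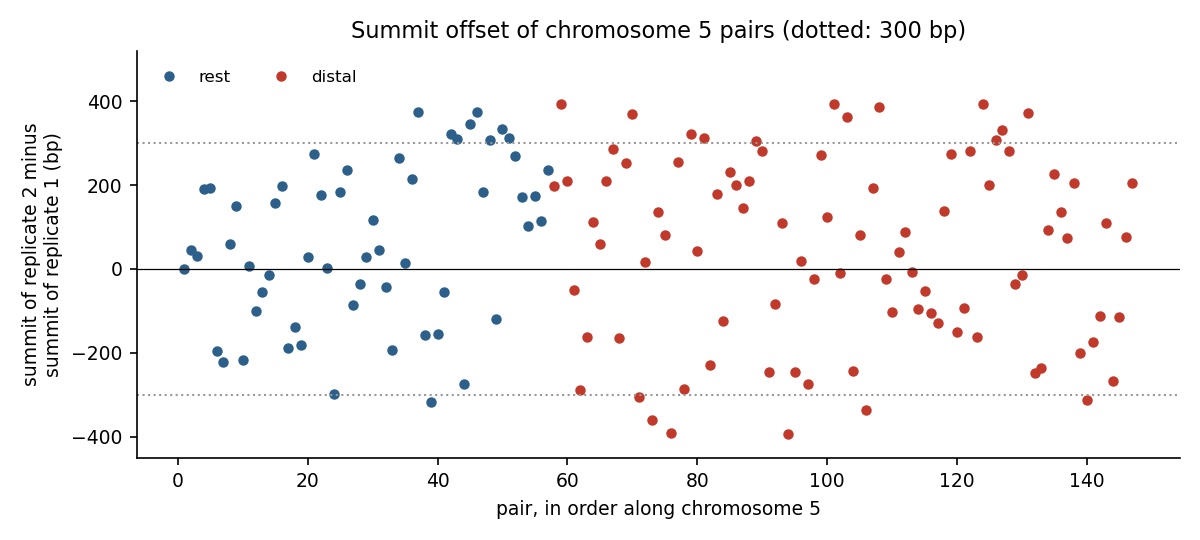
Summit of replicate 2 minus summit of replicate 1 (bp) for the 147 pairs in order along chromosome 5, with distal pairs in red, other pairs in blue and dotted lines at 300 bp to each side. The 27 wide pairs pass the dotted lines, up to 394 bp, and 1 of them lies among the 38 pairs before 190 Mb.

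Summits within 50 bp occurred in 22 of the 147 pairs (15.0%, exact 95% interval 9.62% to 21.8%), where 17.9% of all pairs had them, a share within that interval. The closest was the first pair of the chromosome, at 247870 to 248135 in replicate 1 and 247874 to 248138 in replicate 2, with summits 1 bp apart, pileups of 26.3 and 21, and fold enrichments of 4.46 and 6.17. The pair at 83498216 to 83498471 had summits 2 bp apart, pileups of 14.9 and 14, and fold enrichments of 5.01 and 5.07. Those at 211252750, 19211588 and 209043691 had summits 7, 8 and 9 bp apart. The fold enrichments of these 5 pairs lay between 3.31 and 5.97 in replicate 1 and between 5.07 and 10.5 in replicate 2.

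The intervals of 136 pairs shared at least 1 bp, and 11 pairs (7.48%, exact 95% interval 3.79% to 12.99%) did not overlap, where 3.81% of all pairs did not. Of the 11, 10 lay among the 90 distal pairs (11.1%, exact 95% interval 5.46% to 19.5%). The other 1 lay among the 57 pairs of the rest (1.75%, 0.0444% to 9.39%). These 95% intervals overlap each other, and the difference was not tested. Of the 11 pairs, 10 had summits over 300 bp apart, and 17 wide pairs did overlap. Both summits lay inside the other replicate's interval in 62 of the 147 pairs, 37 of the 90 distal pairs and 25 of the 57 others. The share over all pairs is not given here. Where intervals overlapped, the median overlap was 200.5 bp. The last pair of the chromosome, at 216750603 to 216750909 and 216750842 to 216751106, had summits 204 bp apart, with pileups of 82.3 and 15 and fold enrichments of 2.78 and 4.80.

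No member was near the 500 bp limit of the rule. The widest match, at 213084587 to 213084891 in replicate 1, had its partner summit 394 bp away, with 5.83-fold and 3.93-fold enrichment. The nearest peak of chromosome 5 outside the limit was the replicate 2 peak at 171242472 to 171242992, which was 15629 bp from a replicate 1 summit and had 25.8-fold enrichment. In the replicate 1 list the nearest was the peak at 4278623 to 4279270, at 28285 bp, with 31.4-fold enrichment. The lone peaks of the chromosome had fold enrichments of at least 25.7 in replicate 1 and 25.8 in replicate 2. These values lay above all partnered replicate 1 members, while partnered replicate 2 members reached 47.02. The lowest computed background of the lone peaks was 1.87 in both lists, against 3.17 and 2.35 among the partnered members of replicates 1 and 2. The lowest and highest pileups of the replicate 1 lone peaks were 47 and 404. Neither is a multiple of 0.876 within 0.01, the step of all 147 partnered members of that list. Lone and partnered rows of replicate 1 were thus not all on the same pileup step. Their fold enrichments may rest on different scales and are only set side by side, and the reason was not tested. Whether the lists were selected on closeness or height before deposit was not tested. The partnership and the shares of partnered and lone peaks in the distal end describe the lists as given.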

How the data were processed

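ChIP-seq peaks from anti-ZmbZIP22 replicates 1 and 2 were analysed, and the IgG libraries entered no value. The submitters' processing notes name Bowtie2 and MACS2 2.0.10. A genome build, a calling threshold and the control of each call were not given in the sources used here. The deposited pileup is a signal at the summit and the deposited fold enrichment a ratio to the local background. The deposited −log10 p and −log10 q columns had lost their headings and were read by the usual MACS2 column order; the −log10 p equalled the BED score in every row. Whether starts are counted from 0 or 1 was not settled.

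Partners were found by summit distance (500 bp) and matched in order of position, with Python 3.11.15, pandas 2.3.3 and scipy 1.17.1. The matching was tested on simulated data with widely spaced summits, which did not cover close groups. For 4 of the 147 replicate 1 members the nearest summit differed from the one matched in order. Exact (Clopper-Pearson) 95% intervals cover counting error only. No test between sections was made. The members, lists and limits were chosen with earlier results of these data known. Pairs were named by rule: the 8 highest by the lower fold enrichment (5 in the distal end), the 5 closest by summit, the 3 highest of each list by fold enrichment and by pileup, the first and last, the densest 1 Mb of each section, and those beside each limit. Alternatives were a distal start of 190 or 210 Mb, partners within 200 bp, each interval once, the upper 50% by −log10 q, and nearest-summit pairing. The motif and gene parts of the plan were not run.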

Additional observations from a re-analysis of the deposited data

How the results depend on the processing

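Starting the distal end at 190 Mb raised its share to 74.1% in both lists, and starting it at 210 Mb lowered the share to 28.6% and the density ratio to 12.4. The direction of crowding held under every alternative run. The distal minus rest difference in median spacing, −1144 kb in both lists, was −1765 and −1766 kb from 190 Mb, −242.2 and −242.5 kb from 210 Mb, −1932 and −1926 kb with partners within 200 bp, −1277 kb in replicate 1 with each interval once, and −844 and −3725 kb in the upper 50% by −log10 q. The length difference in replicate 1 reversed to −6.50 bp from 210 Mb; in replicate 2 it was 25 bp there and 18 bp in the upper 50%. The replicate 2 pileup difference, 4, was 0.5 from 190 Mb, 7.50 from 210 Mb and 17 in the upper 50%. The replicate 2 fold enrichment difference was 0.612 from 210 Mb. The median summit distance was 228 bp in pairs of the upper 50% of both lists and 156 bp beyond 210 Mb. The replicate 1 pileup difference, 0, was not given a direction. Unknown depth limits how far short or low peaks can be read. The count of wide pairs by nearest summit was added after seeing the data. The causes were not tested. No paired analysis was possible because no IgG values were analysed here. Without either replicate, partners cannot be defined, so no replicate was left out.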

Other observations

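Length and height were related differently in the lists. Among the 147 partnered chromosome 5 peaks of replicate 2, longer peaks were taller, with a Spearman's rho of length and pileup of 0.78 (0.851 over 90 distal members and 0.626 over 57 others). In replicate 1 the same rho was 0.136 (0.22 and −0.0442). Over all 1550 partnered peaks the values were 0.791 and 0.0845, so chromosome 5 followed the lists as a whole. These are descriptions across peaks of 1 library each, without a test.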
